A study of Mus musculus with 3 samples.

Results

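Naive-gate B cells dominated by lambda constant gene reads made up 16512 of the 18568 cells of their gate and of 35102 filtered cells of splenic B cell libraries of BXD2 females, mice of a recombinant inbred line prone to lupus-like disease. The cells were selected on their own UMIs (counted RNA molecules), so measures built within them from the genes that chose them, and shares of cells by the rule, are given as descriptions with no test. Each cell needed at least 500 genes, under 10% of its UMIs from mitochondrial genes, and 1 hashtag antibody tag with at least 64 UMIs and at least 4 times the other plus 1. The naive gate then kept cells with at least 1 UMI of Ighd, the IgD heavy chain gene of naive B cells, fewer than 5 UMIs of Edem1, a secretory pathway gene high in plasma cells, and fewer than 3 UMIs in all of the proliferation genes Mki67 and Top2a. Cells with at least 3 UMIs of Iglc1, Iglc2 and Iglc3 together, and with more of these than of the kappa constant gene Igkc, are called Iglc-dominant below. They were set against 1439 Igkc-dominant cells of the same gate, which had at least 3 Igkc UMIs and more of them than of the 3 Iglc genes, while 56 to 162 cells of each pool met neither condition. The name of lambda light chain cells was not borne out by their variable genes, as described below, so the cells are called by the rule.

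In the IL-4+R848 group, mice were given IL-4 (5 µg) bound to antibody against it (25 µg), which prolongs its action, and in the R848 group the 25 µg of antibody alone. R848, which activates TLR7, an endosomal sensor of RNA, followed 2 h later in both groups (40 µg for each 20 g of mouse), and no group went without it. Dosing was repeated after 2 days and spleens were taken 2 days after that, with 3 mice per treatment, and the genotype is given as wild-type BXD2. Cells of both treatments, told apart by their hashtags, were combined in 3 libraries (sets 1 to 3), so each set gave 2 pools. The labels do not say whether the cells of a set came from 1 mouse per treatment, so p-values measure the spread between these pools, which may be technical.

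An antibody light chain is built from a variable (V), a joining (J) and a constant (C) segment, of either the kappa or the lambda locus. A B cell normally expresses a single light chain, because a successful join on one chromosome stops further joining, and in mice kappa cells far outnumber lambda cells. The mouse lambda locus is small: Iglv1 is mostly joined to the nearby Iglc3 or Iglc1, and Iglv2 and Iglv3 mostly to Iglc2. Libraries of the 5' kind read transcripts from their start, where the V segment lies.

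In GRCm38 (mm10) with the GENCODE vM21 annotation, the lambda genes lie on the minus strand of chromosome 16, Iglc1 at chr16:19061618-19062071, Iglc3 at chr16:19065230-19065681, Iglv1 at chr16:19085017-19085500, Iglc2 at chr16:19198396-19200351, Iglv3 at chr16:19241207-19241690 and Iglv2 at chr16:19260401-19260859. Igkc lies on the plus strand at chr6:70726435-70726966, inside an intron of the lincRNA Gm30211, with no exon of that gene overlapping it. Iglc2 and Iglc3 encode near-identical constant regions, which differ at 11 of 312 coding bases (96.5% identical) and share a run of up to 79 bases. The coding sequences of Iglv1 and Iglv2 likewise differ at 11 of 351 bases (96.9% identical), with a shared run of up to 104 bases. Counts that separate Iglc2 from Iglc3, or Iglv1 from Iglv2, are uncertain to that extent. They are shown, 300 coding bases each and read from the annotated transcripts, because the choice between these genes returns in the results, with capitals at the bases that differ within a pair (11 between the constant genes and 8 between the V genes in the stretch shown). The constant gene stretches are chr16:19198551-19198850 and chr16:19065380-19065679, and those of the V genes span an intron within chr16:19085068-19085460 and chr16:19260452-19260844.
Iglc2: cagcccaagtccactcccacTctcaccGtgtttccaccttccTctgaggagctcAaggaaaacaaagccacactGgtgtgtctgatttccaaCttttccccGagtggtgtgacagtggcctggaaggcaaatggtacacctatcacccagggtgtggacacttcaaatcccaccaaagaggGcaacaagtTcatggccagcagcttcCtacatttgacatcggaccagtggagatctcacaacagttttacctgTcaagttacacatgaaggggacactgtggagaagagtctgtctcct
Iglc3: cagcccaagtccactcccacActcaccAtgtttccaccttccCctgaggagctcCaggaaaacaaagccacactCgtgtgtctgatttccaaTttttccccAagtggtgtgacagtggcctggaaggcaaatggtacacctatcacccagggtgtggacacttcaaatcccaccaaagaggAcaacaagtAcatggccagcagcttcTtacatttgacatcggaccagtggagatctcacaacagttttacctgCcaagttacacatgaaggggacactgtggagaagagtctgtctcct
Iglv1: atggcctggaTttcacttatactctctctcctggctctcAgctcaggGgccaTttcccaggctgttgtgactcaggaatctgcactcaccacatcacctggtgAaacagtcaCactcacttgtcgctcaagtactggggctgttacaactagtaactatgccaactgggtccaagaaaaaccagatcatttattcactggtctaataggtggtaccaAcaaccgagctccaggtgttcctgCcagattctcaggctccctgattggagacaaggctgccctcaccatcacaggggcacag
Iglv2: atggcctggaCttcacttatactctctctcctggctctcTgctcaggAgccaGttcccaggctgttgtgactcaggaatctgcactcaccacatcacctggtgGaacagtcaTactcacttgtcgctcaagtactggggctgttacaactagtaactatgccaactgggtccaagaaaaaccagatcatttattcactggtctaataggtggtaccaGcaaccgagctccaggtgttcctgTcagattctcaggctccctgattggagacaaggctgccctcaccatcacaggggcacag

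The 3 libraries contained between 11389 and 14519 barcodes each and between 96866964 and 107244246 UMIs of genes. Iglc-dominant cells had a median of 5482 UMIs, and their pools held 2387 to 2500 cells with IL-4+R848 and 2776 to 3279 with R848. Igkc-dominant pools were far smaller, at 152 to 180 and 257 to 416 cells. Between pairs of sets, 219 to 289 barcode sequences recurred, 35 to 45 of them among Iglc-dominant cells of both sets. Markers of other cell types were summed per list in Iglc-dominant pools, in CPM (UMIs of a gene scaled to a common total per pool). The sums were 28.6 to 40.1 CPM for 9 T cell genes, 3.10 to 41.7 CPM for 8 NK cell genes and 1.00 to 3.91 CPM for 8 red cell and platelet genes. The 10 myeloid genes were not as low, at 256 to 376 CPM, beside 271 to 385 CPM in Igkc-dominant pools.

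Most Iglc-dominant cells carried a kappa V gene. A cell was called by its V genes when it had at least 5 UMIs of 1 locus and at least 4 times those of the other locus plus 1. Of the 16512 Iglc-dominant cells, 14261 (86.4%) were Igkv-called, 883 (5.35%) were Iglv-called and 1368 (8.28%) were neither. In the IL-4+R848 pools of sets 1, 2 and 3, 5.28%, 5.64% and 6.95% of Iglc-dominant cells were Iglv-called, against 4.61%, 4.32% and 5.64% in the R848 pools. Every pool was thus mostly Igkv-called, between 84.7% and 87.9%. Among Igkc-dominant cells 1315 (91.4%) were Igkv-called and 29 (2.02%) Iglv-called. Read the other way, 95.3% of the 927 Iglv-called cells and 88.8% of the 16059 Igkv-called cells of the gate were Iglc-dominant. The constant gene rule therefore took nearly all cells of both kinds, and the Iglv-called cells are described beside it from here on.

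**Figure D1:**
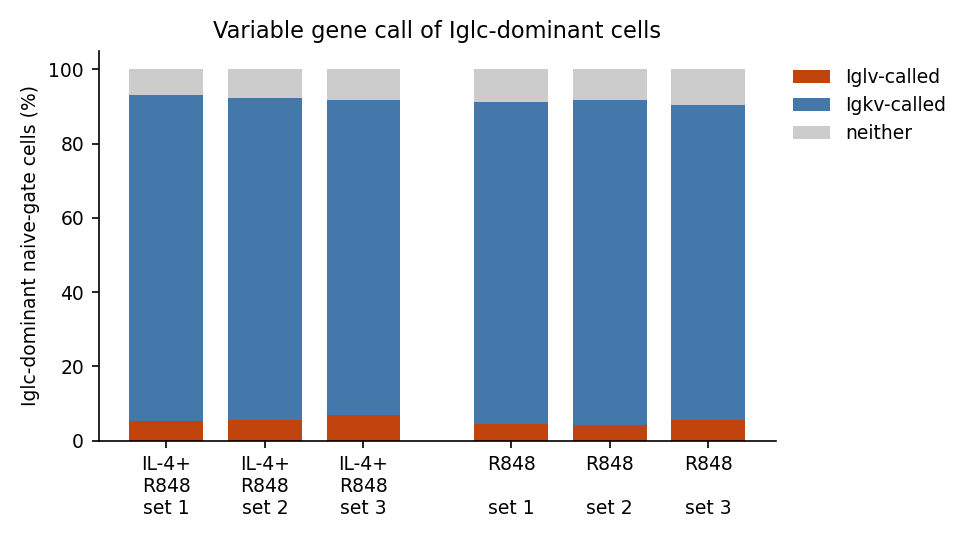
Share of Iglc-dominant naive-gate cells by V gene call (y axis, percent) in each of the 6 pools (x axis, treatment and set). Igkv-called cells fill 84.7% to 87.9% of every bar and Iglv-called cells 4.32% to 6.95%.

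The constant gene levels of Iglc-dominant cells, on which the rule was based, are given as a description. Averaged over 6 pools, an Iglc-dominant cell held 12.4 ± 1.63 UMIs of Iglc2, 6.62 ± 1.22 of Iglc3 and 3.33 ± 0.62 of Iglc1 (SD over pools), with a median of 19 for the sum, and 6.59 ± 1.10 UMIs of Igkc with a median of 5. An Igkc-dominant cell held 9.96 ± 1.74 UMIs of the 3 Iglc genes and 20.1 ± 3.35 of Igkc. Iglc RNA was therefore not missing from the contrast cells, of which 97.3% had at least 1 Iglc UMI. Ighd, which opened the gate, averaged 2.12 ± 0.23 UMIs in Iglv-called cells and 2.44 ± 0.24 in Igkv-called cells.

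Between cells called by their V genes, Iglc1 and Iglc2 overlapped over the pools, and Iglc3 and Igkc were the constant genes that stood apart. Iglc2 averaged 10.7 ± 1.74 UMIs per Iglv-called cell and 11.7 ± 1.55 per Igkv-called cell, and Iglc1 averaged 3.31 ± 0.71 and 3.12 ± 0.62. Igkc averaged 2.54 ± 0.60 UMIs per Iglv-called cell, between 1.72 and 3.48 over pools, against 8.05 ± 0.99 per Igkv-called cell, between 7.25 and 9.79. Iglc3 averaged 3.17 ± 0.86 UMIs per Iglv-called cell and 6.55 ± 1.24 per Igkv-called cell. The Igkc levels of the 2 kinds of cells did not overlap over the 6 pools, and those of Iglc3 did so only narrowly, with 4.61 as the highest Iglv-called and 4.66 as the lowest Igkv-called pool. The V genes themselves, which made the call, averaged 75.8 ± 22.4 Iglv and 4.88 ± 2.17 Igkv UMIs in Iglv-called cells, against 0.53 ± 0.16 Iglv and 52.9 ± 9.44 Igkv UMIs in Igkv-called cells. No UMI was counted on any Iglj or Igkj gene.

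**Figure D2:**
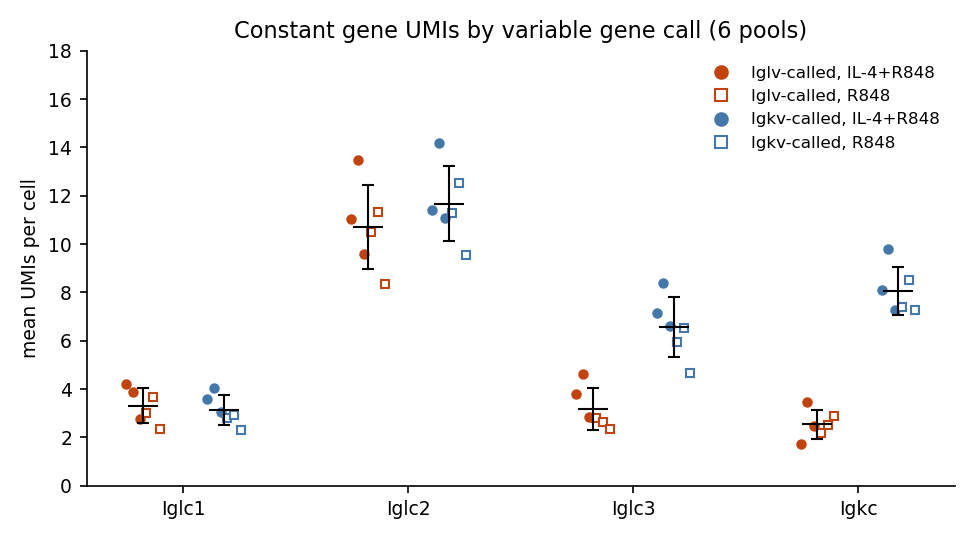
Mean UMIs per cell (y axis) of the 4 light chain constant genes (x axis) in Iglv-called and Igkv-called naive-gate cells, with a point per pool and the mean with SD over 6 pools in black. Iglc2 averages 10.7 and 11.7 UMIs, while Igkc averages 2.54 and 8.05 UMIs.

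Among Iglv-called cells with a single highest V gene, 645 of 924 (69.8%) had Iglv1, 179 (19.4%) Iglv2 and 100 (10.8%) Iglv3. The shares were close under both treatments, Iglv1 leading in 70.0 ± 3.35% of cells with IL-4+R848 and 69.9 ± 4.29% with R848 (n = 3 pools each). They are given as a description, since the Iglv genes made the call. Iglc3 averaged 2.49 ± 0.81 UMIs in Iglv1 cells, 4.31 ± 0.65 in Iglv2 cells and 5.92 ± 2.86 in Iglv3 cells, while Iglc2 averaged 11.8 ± 2.00, 8.23 ± 1.18 and 8.74 ± 2.14. Iglc2 was thus the leading constant gene with each of the 3 V genes, Iglv1 included. Iglv2 cells also held 14.7 ± 4.52 UMIs of Iglv1, whose coding sequence is close to that of Iglv2, as printed above.

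Reads of free RNA were gauged in 132 cells with at least 3 UMIs of Nkg7, a cytotoxic granule gene, and none of Cd79a, part of the B cell receptor. With a median depth of 7139 UMIs, above that of Iglc-dominant cells, 9.85% of them had any Iglc UMI, at a mean of 0.11, and none had 3, which allows a share of up to 2.27%. Igkc was found in 25.8% of them, any Igkv gene in 61.4%, and at least 5 Igkv UMIs in 9.09%, while none had 5 Iglv UMIs. Of Igkv-called cells 98.1% had at least 3 Iglc UMIs, and the source of these counts was not tested. Cells with at least 5 UMIs of both V loci were 8.58% of the naive gate, against 29.4% of the 3240 barcodes that carried both hashtags. Near the rule's limits, 76 Iglc-dominant cells had exactly 3 Iglc UMIs and 61 cells outside had 2. A further 381 lay 1 UMI inside the balance with Igkc, 346 cells on it and 269 at 1 UMI on the Igkc side. Ighd was at a single UMI in 6252 Iglc-dominant cells, and 9517 cells met every other condition with none.

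The share of Iglc-dominant cells was slightly higher with IL-4 in each set. It was 94.2%, 93.1% and 94.0% in the IL-4+R848 pools of sets 1, 2 and 3, against 92.2%, 91.5% and 88.3% in the R848 pools. The means were 93.8 ± 0.572% and 90.7 ± 2.07%, a difference of 3.10 percentage points, and the groups did not overlap. Depth moved with treatment, at medians of 5417 to 7509 UMIs against 4247 to 5587. Thinning each cell to 2000 UMIs left out 219 of 8025 and 465 of 10543 shallower cells. The difference was then 2.40 points and the groups overlapped. After thinning the shares were 91.1%, 89.9% and 92.3% with IL-4+R848 against 90.3%, 89.1% and 86.7% with R848. The share of Iglv-called cells was also higher in each set, at 5.36%, 5.69% and 7.27% with IL-4+R848 against 4.63%, 4.41% and 5.80% with R848. These groups overlapped and differed by 1.16 points (exact two-sided permutation p = 0.3, where 3 against 3 allow none under 0.1).

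Across cell states, the Iglc-dominant share was far higher in naive than in plasma cells, and the Iglv-called share differed little in size between them. The Iglc-dominant share averaged 92.2 ± 2.17% in the naive gate, 87.5 ± 2.40% in non-dividing Ighd-negative cells, 64.7 ± 7.22% in dividing cells (Mki67 and Top2a at 3 or more) and 14.02 ± 0.999% in plasma cells (Edem1 at 5 or more). The naive gate had the higher share in 6 of 6 pools each time, by 78.2 points over plasma cells and 4.70 over Ighd-negative cells, a gap that was 2.78 points after thinning to 2000 UMIs. Both the share and the states were built from genes of the rule. The Iglv-called share was 5.53 ± 1.02% in the naive gate and 4.72 ± 1.55% in plasma cells, where only 4 of 6 pools had the higher naive share (exact p = 0.375). It was 2.40 points lower in the naive gate than in Ighd-negative cells, in 6 of 6 pools, and 1.20 points higher than in dividing cells, in 6 of 6 pools (exact sign-flip p = 0.0469 for both after Benjamini-Hochberg (BH) adjustment). Here too the states were cut by genes of the rule, and thinning did not cut them anew. Iglv-called cells held fewer Ighd UMIs and were shallower, so these p-values cannot tell state from detection of the rule genes, which was not tested. Between naive and plasma cells the Iglc-dominant share thus differed by 78.2 points and the Iglv-called share by 0.807 points, and the difference between these differences was not tested.

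**Figure D3:**
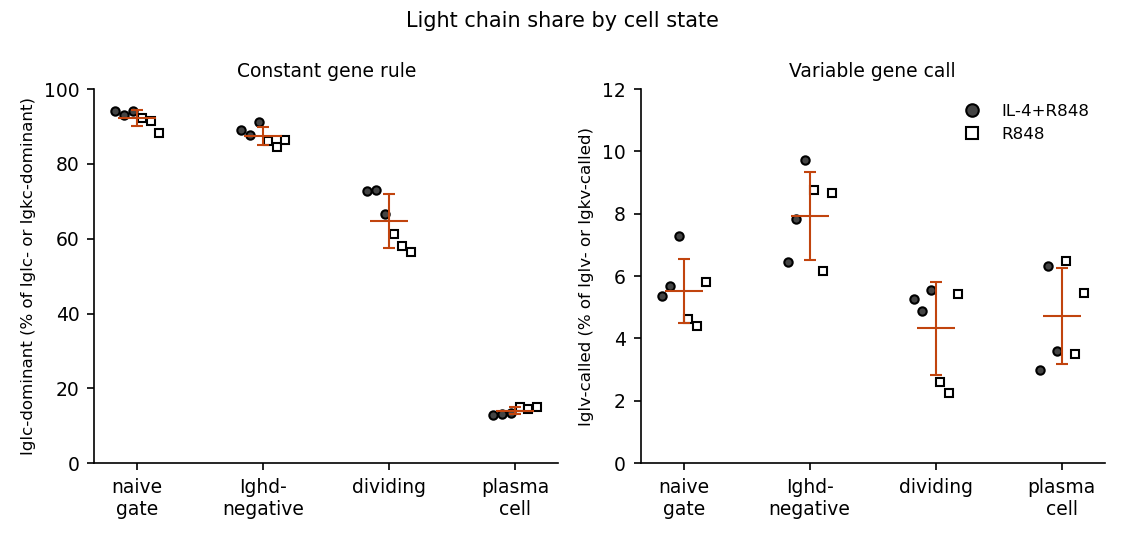
Share of Iglc-dominant cells among Iglc- or Igkc-dominant cells (left, percent) and of Iglv-called cells among Iglv- or Igkv-called cells (right, percent) in 4 cell states, with a point per pool and the mean with SD over 6 pools in red. The left share averages 92.2% in the naive gate and 14.02% in plasma cells, and the right share 5.53% and 4.72%.

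Which Iglc gene led in an Iglc-dominant cell differed by treatment in every set. Leaving out 1005 ties, Iglc2 led in 12935 cells, Iglc3 in 2235 and Iglc1 in 337. Iglc3 led in 19.2%, 16.1% and 16.9% of cells of the IL-4+R848 pools against 12.6%, 13.1% and 10.4% in the R848 pools. Iglc2 led in 77.8%, 82.3% and 80.7% against 85.3%, 85.2% and 87.3%. Neither pair of groups overlapped, with differences of 5.36 and -5.68 points, and Iglc1 led in 2.34 ± 0.646% and 2.02 ± 0.326%. Over the whole naive gate, which no light chain rule had cut, Iglc1 RNA was 561 ± 14.5 CPM with IL-4+R848 and 475 ± 24.2 CPM with R848 (log2 fold change 0.24 ± 0.05, SE, edgeR adjusted p = 0.0118), where 6.67% of 11412 genes were called higher and 5.44% lower, 12.1% in all. Iglc3 was 1104 ± 31.8 against 955 ± 53.7 CPM (0.21 ± 0.05, adjusted p = 0.0241). Iglc2, at 1909 ± 101 and 1943 ± 44.8 CPM, Igkc, at 1233 ± 26.6 and 1288 ± 80.1 CPM, and Iglv1, at 833 ± 100 and 758 ± 141 CPM, did not pass.

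Against Igkc-dominant cells, genes higher in Iglc-dominant cells included 8 of 16 of class II presentation and 10 of 31 of the B cell receptor, and lower genes included 7 of 11 of plasmablasts and 17 of 18 of Myc and ribosome biogenesis. UMIs were summed per pool and light chain, and edgeR with the pool as block called 523 genes higher and 441 lower of 11158 (4.69% and 3.95%, 8.64% in all, at a BH adjusted p under 0.05). Without set 2 the calls were 395 and without set 3 they were 626. The lists used from here on are described by their counts, and all genes had a median log2 fold change of 0.01.

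Of 16 MHC class II and costimulation genes, 8 were higher and none lower (median log2 fold change 0.10), among them H2-Ob and H2-Oa, the chains of the peptide loading modulator H2-O. H2-Ob was higher in Iglc-dominant cells of 6 of 6 pools, at 767 ± 64.3 against 645 ± 52.6 CPM (0.25 ± 0.03, adjusted p = 2.33e-05). Of 31 B cell receptor signalling genes 10 were higher and 4 lower, with Blk, a Src family kinase, at 245 ± 17.7 against 201.4 ± 33.4 CPM (0.29 ± 0.06, adjusted p = 0.00134), which did not pass without set 2 (0.25, adjusted p = 0.0656). Plac8, which is high in marginal zone B cells, was 818, 860 and 926 CPM in Iglc-dominant cells of the IL-4+R848 pools and 869, 849 and 969 in the R848 pools, against 613, 626 and 724 and then 536, 571 and 688 CPM in Igkc-dominant cells (0.50 ± 0.04, adjusted p = 3.98e-08). No pool of Iglc-dominant cells fell to the level of any Igkc-dominant pool. Tnfrsf13b, the BAFF and APRIL receptor TACI, was 231 ± 28.9 against 182 ± 16.1 CPM (0.35 ± 0.05, adjusted p = 6.79e-05).

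Lower genes in Iglc-dominant cells included those of plasmablasts, with 7 of 11 lower and none higher (median -0.59), and of Myc targets and ribosome biogenesis, with 17 of 18 lower (median -0.44). Jchain, which links IgM and IgA multimers, was 59.7 ± 31.3 against 696 ± 470 CPM (-3.37 ± 0.22, adjusted p = 1.98e-09), and Ighg2c, the IgG2c constant gene, 22.4 ± 9.20 against 408 ± 400 CPM (-3.72 ± 0.39, adjusted p = 1.58e-06). Srm, the spermidine synthase gene, was 53.1 ± 1.52 against 95.7 ± 14.6 CPM (-0.85 ± 0.07, adjusted p = 1.61e-07). Of 19 genes of immature B cells 8 were lower and 1 higher, among them Rag1 and Rag2 of the recombinase, and Vpreb1 of the surrogate light chain fell to 1.81 ± 0.913 against 8.07 ± 8.09 CPM (-2.15 ± 0.32, adjusted p = 6.30e-05). Cells with 10 or more UMIs of Jchain, or of IgG, IgA and IgE constant genes together, were then left out, a setting chosen after seeing the data. Jchain was then lower in Iglc-dominant cells by 0.31 and Ighg2c by 0.42 on the log2 scale, and both passed. This setting cut on these same genes, so it cannot show what difference in them remained. Xbp1 (-0.12), Derl3 (-0.36) and Prdm1 (-0.11), which serve secretory differentiation, no longer passed, while Srm (-0.84) did. Of 17 handling stress genes 6 were lower and none higher (median -0.27), and their part in the result was not tested. The summed level of 12 plasmablast genes was 941 to 1134 CPM in Iglc-dominant pools and 1152 to 2700 CPM in Igkc-dominant pools.

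Most of these differences did not carry over to the V gene call. Set against Igkv-called cells, Iglv-called cells had log2 fold changes of -0.13 in Plac8, -0.03 in H2-Ob, -0.03 in Tnfrsf13b, -0.01 in Srm and 0.18 in Xbp1, none of which passed. H2-Oa (-0.25) and Cd72 (-0.24), which passed in both, had the opposite sign, though Cd72 did not pass without set 1 in either (0.19 and -0.18). H2-Aa, H2-Eb1, Fcgr2b, Lmo2, Ccr6 and Atp1b1 also passed in both with opposite signs, while Klf2, Fcmr and Mcl1 were higher in both. Vpreb1 (-2.36, adjusted p = 0.14) did not pass, and Jchain (-0.96) and Ighg2c (-1.35) passed with the same sign.

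Iglv-called cells differed from Igkv-called cells at fewer genes, 82 higher and 195 lower of 10958 (0.748% and 1.78%, 2.53% in all). Of 18 genes of immature B cells 6 were higher and 2 lower. Class II presentation had 5 lower and 1 higher of 15, and some genes of inhibitory receptors and homing were lower. Leaving out set 1 gave 130 calls and set 2 gave 143, and without the pool as block there were 48. All genes had a median log2 fold change of -0.02. The median depth was 4638 UMIs in Iglv-called and 5443 in Igkv-called cells, whose part in the result was not tested.

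Of 18 measured genes of immature and transitional B cells, 6 were higher (Cd93, Vpreb3, Cd24a, Akap12, Tifa and Atp1b1) and 2 lower (Ms4a4c and Igll1), with a median of 0.43. Rag2 and Dntt of the same list had no UMI in the small Iglv-called pools and were not measured. Atp1b1, a sodium pump subunit gene, was 34.2, 28.6 and 33.2 CPM in Iglv-called cells of the IL-4+R848 pools and 25.6, 39.9 and 33.5 CPM in those of the R848 pools. In Igkv-called cells it was 12.4, 14.6 and 12.2 CPM with IL-4+R848 and 16.2, 15.6 and 10.6 CPM with R848. The 2 kinds of cells did not overlap in Atp1b1 (1.26 ± 0.14, adjusted p = 8.38e-07), while Iglc-dominant cells were lower than Igkc-dominant cells in it (-0.77 ± 0.14, adjusted p = 0.000694). Tifa, a signalling adaptor gene, was 23.2 ± 4.44 against 15.4 ± 3.93 CPM (0.62 ± 0.15, adjusted p = 0.0114), and Akap12, a kinase scaffold gene, 28.4 ± 10.4 against 18.8 ± 4.81 CPM (0.60 ± 0.13, adjusted p = 0.00586). Lef1, a transcription factor gene of early lymphocytes, was 17.5 ± 7.23 against 9.34 ± 3.33 CPM (0.92 ± 0.20, adjusted p = 0.00539), and Tcf3, which encodes E2A, 196 ± 29.0 against 165 ± 14.1 CPM (0.24 ± 0.06, adjusted p = 0.012). Of these 5, Akap12 did not pass without set 1 (0.59) or set 2 (0.62), Tifa without set 2 (0.55) or set 3 (0.59), Lef1 without set 3 (0.71) and Tcf3 without set 1 (0.20) or set 3 (0.25).

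Klf2, a factor of lymphocyte quiescence and trafficking, averaged 1254 ± 203 against 1133 ± 160 CPM (0.14 ± 0.03, adjusted p = 0.0013), and Fcmr, the IgM Fc receptor gene, 851 ± 195 against 769 ± 189 CPM (0.15 ± 0.03, adjusted p = 0.00354). Both were higher in 6 of 6 pools. Of 11 follicular genes 2 were higher and 1, Cr2, lower, beside 0.748% of all genes higher and 1.78% lower. Of 15 marginal zone genes none passed in either direction, with a median of -0.13, and edgeR gave 4 of them an unadjusted p under 0.05. Mcl1, a survival gene of the BCL2 family, was 601 ± 72.7 against 532 ± 39.2 CPM (0.17 ± 0.04, adjusted p = 0.00525). None of these 3 named rises passed without set 1 (Klf2 0.12, Fcmr 0.15, Mcl1 0.15).

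Of 16 trafficking receptors 2 were lower and none higher, beside 1.78% of all genes lower and 0.748% higher. Ccr6, the receptor for CCL20, was 31.6, 30.8 and 34.5 CPM in Iglv-called cells with IL-4+R848 and 47.0, 95.0 and 88.5 CPM with R848. In Igkv-called cells Ccr6 was 77.7, 70.3 and 66.8 CPM with IL-4+R848 and 122, 128 and 115 CPM with R848. Within each treatment Iglv-called cells were thus below Igkv-called cells in every set (-0.85 ± 0.11, adjusted p = 8.04e-06). Itgb7, the beta 7 integrin gene of gut homing, was 39.8 ± 12.7 against 64.9 ± 13.4 CPM (-0.71 ± 0.10, adjusted p = 4.74e-05).

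Of 15 class II and costimulation genes 5 were lower and 1, Ifi30, higher, beside 1.78% of all genes lower. H2-Eb1 was 4517 ± 703 against 4920 ± 698 CPM (-0.13 ± 0.02, adjusted p = 0.000162) and H2-Oa 529 ± 159 against 626 ± 164 CPM (-0.25 ± 0.04, adjusted p = 5.63e-05). Of 31 B cell receptor genes 4 were lower and 1 higher. Nr4a1, an early gene induced by receptor signals, was 25.3, 17.0 and 13.5 CPM in Iglv-called cells with IL-4+R848 and 81.2, 81.3 and 81.3 CPM with R848, against 33.2, 38.1 and 38.8 and then 155, 122 and 94.1 CPM in Igkv-called cells (-0.69 ± 0.11, adjusted p = 0.000148). Nr4a1 was lower in Iglv-called cells of 6 of 6 pools. The inhibitory receptor genes Cd72 (445 ± 132 against 520 ± 121 CPM, -0.24 ± 0.04, adjusted p = 0.000689) and Fcgr2b (185 ± 53.0 against 225 ± 39.5 CPM, -0.30 ± 0.06, adjusted p = 0.00415) were also lower, and neither passed without set 1 (-0.18 and -0.19). Of 6 heavy chain constant genes 3 of the IgG genes were lower and Ighm higher, with Ighg2b at 38.4 ± 18.6 against 59.3 ± 22.3 CPM (-0.66 ± 0.12, adjusted p = 0.000443).

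**Figure D4:**
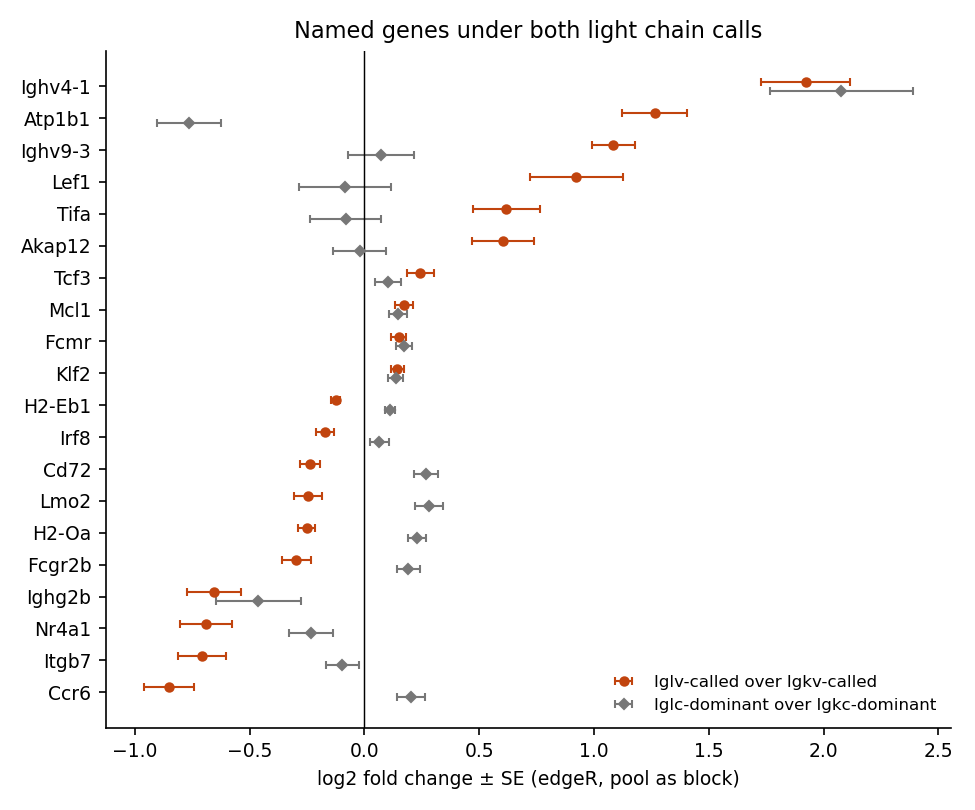
Log2 fold changes with SE (x axis) of 20 named genes (y axis), for Iglv-called over Igkv-called cells in red and Iglc-dominant over Igkc-dominant cells in grey. Atp1b1 is at 1.26 under the V gene call and at -0.77 under the constant gene rule, and Ccr6 at -0.85 and 0.20.

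Heavy chain V use, which neither light chain call used, was compared between cells called by their V genes, and no family passed BH adjustment. The family of the highest Ighv gene was taken in cells with at least 2 UMIs of it and no tie, for 14 families. VH1, the largest family, made up 47.0%, 50.4% and 43.6% of Iglv-called cells with IL-4+R848 and 41.1%, 44.4% and 42.9% with R848, against 61.7%, 59.0% and 57.3% and then 58.0%, 58.9% and 58.9% of Igkv-called cells. Every Iglv-called pool was below every Igkv-called pool, by 14.1 points on average. VH9 was 8.62 ± 2.23% against 5.07 ± 0.569% and VH4 2.39 ± 1.33% against 0.515 ± 0.163%, both higher in 6 of 6 pools. Each of these 3 had an exact sign-flip p = 0.031, the lowest that 6 pools allow, and a BH adjusted p of 0.146 over the 14 families, so none passed. VH2, VH8 and VH10 were higher in 5 of 6 pools. Between Iglc-dominant and Igkc-dominant cells VH1 was 57.4 ± 1.55% against 59.0 ± 2.25% and no family passed (lowest BH adjusted exact p = 0.438).

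Single Ighv genes followed in the RNA sums, where edgeR called Ighv9-3 at 266 ± 57.0 CPM in Iglv-called against 126 ± 25.4 CPM in Igkv-called cells (1.08 ± 0.09, adjusted p = 2.63e-09). Ighv4-1 was 74.7, 43.5 and 118 CPM in Iglv-called cells with IL-4+R848 and 37.0, 33.1 and 28.7 CPM with R848, against 10.4 to 17.8 CPM over the 6 Igkv-called pools (1.92 ± 0.19, adjusted p = 8.81e-08). Ighv4-1 was also higher in Iglc-dominant than in Igkc-dominant cells, at 18.8 ± 3.80 against 4.48 ± 5.10 CPM (2.08 ± 0.31, adjusted p = 7.81e-05). Few cells lay behind both Ighv4-1 results. Among cells with a single highest Ighv gene, it was Ighv4-1 in 21 of 890 Iglv-called and 3 of 1298 Igkc-dominant cells over all pools. Ighv1-53 was lower in Iglv-called cells, at 22.2 ± 14.2 against 64.6 ± 69.2 CPM (-1.49 ± 0.19, adjusted p = 4.80e-06), with 205 CPM in the Igkv-called cells of 1 pool, set 2 with IL-4+R848. Ighv genes are close copies of each other, so counts of single genes are uncertain.

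Of 12 surface antibody tags none passed BH adjustment under either call. Iglv-called cells carried 349, 366 and 287 IgD tag UMIs per cell with IL-4+R848 and 244, 260 and 226 with R848, against 489, 493 and 392 and then 346, 357 and 297 for Igkv-called cells. Iglv-called cells were lower in 6 of 6 pools (log2 ratio of means -0.45, exact sign-flip p = 0.031, BH adjusted 0.0938). CD21, the complement receptor encoded by Cr2, averaged 51.8 ± 24.9 against 76.0 ± 35.5 UMIs (-0.57), and CD27 (-0.46) and CD138 (-0.17) were likewise lower in 6 of 6 pools with the same p. As a share of tag UMIs IgD and CD21 were lower in 6 of 6 pools (-0.23 and -0.35), CD27 in 4 and CD138 in 2. The lower depth of Iglv-called cells moved with these tags and its part was not tested. Between Iglc-dominant and Igkc-dominant cells, IgM was higher (36.8 ± 11.5 against 31.7 ± 13.0 UMIs, 0.26) and CD138 lower (12.3 ± 4.65 against 15.1 ± 8.36 UMIs, -0.21) in 6 of 6 pools (BH adjusted exact p = 0.188 for both). Without the cells of the top 5% of UMIs, IgM was higher in 5 and CD138 lower in 4 of 6 pools (log2 0.20 and -0.13).

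IL-4 changed Iglc-dominant cells widely, with 785 genes higher and 698 lower of 11188 (7.02% and 6.24%, 13.3% in all). Without set 1 there were 945 calls and without set 2 there were 643. All genes had a median log2 fold change of -0.00. Of 19 IL-4 and STAT6 response genes 14 were higher and 2 lower (median 0.84), and of 16 class II and costimulation genes 14 were higher and none lower (median 0.40). Nfil3, a transcription factor gene induced by IL-4, was 79.8, 108 and 93.0 CPM with IL-4+R848 against 4.16, 4.58 and 3.10 CPM with R848 (4.55 ± 0.14, adjusted p = 1.50e-09). Lifr, a cytokine receptor gene, was near absent with R848, at 65.6 ± 4.39 against 1.29 ± 1.09 CPM (5.62 ± 0.24, adjusted p = 2.13e-08). Ifi30, a lysosomal reductase gene that aids antigen processing, was 1763 ± 116 against 570 ± 61.6 CPM (1.63 ± 0.08, adjusted p = 5.75e-08).

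Lower genes with IL-4 in Iglc-dominant cells included 11 of 15 genes of handling stress and 14 of 31 B cell receptor genes, 4 of which were higher. Nr4a1 was 34.2 ± 2.54 against 115 ± 27.6 CPM (-1.76 ± 0.14, adjusted p = 5.30e-06), Cr2 38.2 ± 2.44 against 104 ± 13.3 CPM (-1.44 ± 0.09, adjusted p = 5.99e-07) and Cd24a 197 ± 15.7 against 434 ± 29.4 CPM (-1.14 ± 0.07, adjusted p = 4.17e-07). Ighg2b was 37.6 ± 1.02 against 72.7 ± 16.2 CPM (-0.95 ± 0.13, adjusted p = 0.00028). In the smaller Igkc-dominant pools 124 genes were higher and 74 lower with IL-4 of 7636 (1.62% and 0.969%, 2.59% in all), and the 198 calls became 99 without set 1 and 68 without set 2. The genes of handling stress move when cells are processed as well, and their part in the result was not tested.

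On the surface of Iglc-dominant cells, 6 of 12 tags did not overlap between treatments (exact p = 0.1, the lowest possible, BH adjusted 0.2). CD23 averaged 549 ± 52.6 UMIs per cell with IL-4+R848 and 244 ± 20.0 with R848, GL7 58.9 ± 10.4 and 15.7 ± 3.78, IgD 454 ± 58.3 and 324 ± 34.5, and IgM 46.9 ± 4.96 and 26.7 ± 1.77. CD21 averaged 45.5 ± 7.995 with IL-4+R848 and 102 ± 25.6 with R848, and CD138 8.63 ± 2.35 and 16.1 ± 2.67. As a share of a cell's surface tag UMIs, IgD had the opposite sign (log2 -0.16), and IgM was higher in 2 of 3 sets and overlapped between treatments (log2 0.17, exact p = 0.4), so both depend on the scale. CD93, CD95, CD11c and CD80 overlapped as UMIs per cell but not as shares, where all of them were lower with IL-4+R848.

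Iglv-called cells, in smaller pools of 128 to 195 cells, had 206 genes higher and 129 lower with IL-4 of 6608 (3.12% and 1.95%, 5.07% in all). Without set 1 there were 199 calls and without set 2 there were 195. The larger Igkv-called pools had 763 higher and 640 lower of 11171 (6.83% and 5.73%, 12.6% in all), and the 1403 calls became 822 without set 1 and 591 without set 2. Of 13 measured IL-4 and STAT6 response genes 6 were higher and 1 lower (median 0.63), and of 15 class II and costimulation genes 10 were higher and none lower (median 0.47, beside -0.00 for all genes). Cr2 was 28.1 ± 2.16 against 91.4 ± 12.9 CPM (-1.71 ± 0.19, adjusted p = 6.62e-06), and Sox4, a factor of early B cells, 3.28 ± 2.69 against 28.4 ± 3.91 CPM (-3.06 ± 0.43, adjusted p = 0.000133). The Iglv-called pools with IL-4+R848 held 822685 to 990276 gene UMIs, so Sox4 there rested on few UMIs and the size of its fall is uncertain. Ccr6 was 33.4 ± 1.95 against 80.7 ± 27.3 CPM (-1.28 ± 0.23, adjusted p = 0.00159).

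The IL-4 difference depended on the V gene call at 21 of 10958 genes (0.192%), with a higher log2 difference in Iglv-called cells at 9 (0.0821%) and a lower one at 12 (0.11%). All but Il4i1, Cd83, Slpi, Marcksl1 and Trmu were Ighv genes. Il4i1, an amino acid oxidase gene induced by IL-4, was 520, 533 and 459 CPM in Iglv-called cells with IL-4+R848 against 58.4, 97.8 and 66.9 CPM with R848. In Igkv-called cells Il4i1 was 402, 439 and 388 CPM with IL-4+R848 against 95.2, 126 and 107 CPM with R848. In each set the Iglv-called cells were thus above the Igkv-called cells with IL-4+R848 and below them with R848 (difference of log2 differences 0.86 ± 0.12, adjusted p = 2.82e-05). Cd83, an activation marker gene, was 736, 792 and 810 CPM in Iglv-called cells with IL-4+R848 against 217, 300 and 313 CPM with R848, and 737, 775 and 775 against 361, 378 and 392 CPM in Igkv-called cells. The difference of log2 differences was 0.47 ± 0.08 (adjusted p = 0.000382), and in both genes it came with the same sign in 3 of 3 sets. Without the pool as block edgeR called none of the genes, with 488 at an unadjusted p under 0.05, and DESeq2 called 2. Cd83 did not pass without set 1 (0.37, adjusted p = 0.112). Slpi, a protease inhibitor gene (1.78 ± 0.30, adjusted p = 0.000797), did not pass without set 3 (1.09, adjusted p = 0.169).

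**Figure D5:**
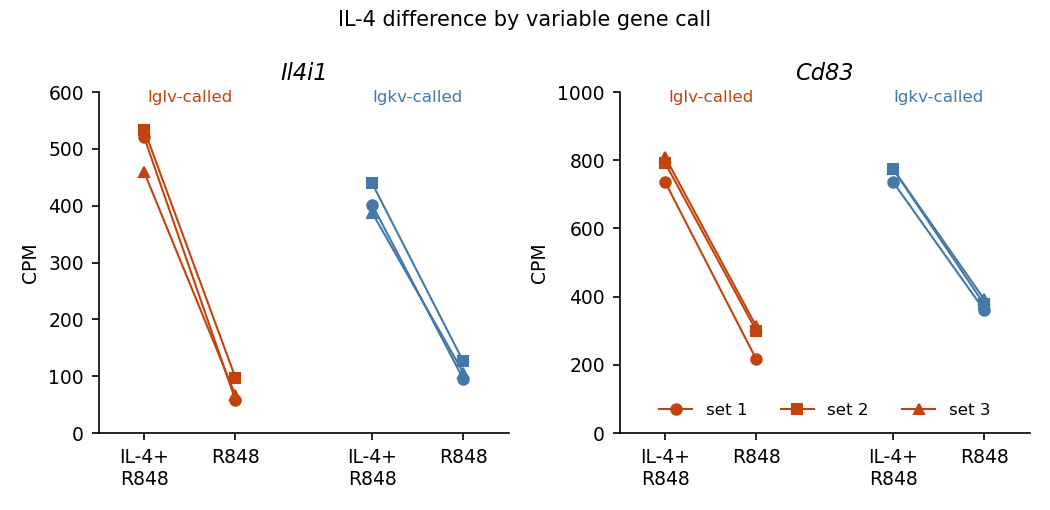
CPM (y axis) of Il4i1 and Cd83 in Iglv-called and Igkv-called cells with IL-4+R848 and with R848 (x axis), with lines joining the 2 pools of a set. The Il4i1 drop between treatments is steeper in Iglv-called cells, which lie between 459 and 533 CPM with IL-4+R848 and between 58.4 and 97.8 CPM with R848.

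Between Iglc-dominant and Igkc-dominant cells, the IL-4 difference passed at 6 of 11158 genes (0.0538%, with 0.0179% higher and 0.0358% lower), Ccl4, Ly6c2 and 4 Ighv genes. Ighv1-78 averaged 25.8 ± 5.91 CPM over the 6 Iglc-dominant pools, while Igkc-dominant cells of set 3 had 3098 CPM with R848 and 24.2 CPM with IL-4+R848. Without the pool as block edgeR called none, with 517 genes at an unadjusted p under 0.05, and DESeq2 called none, with 205.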

How the data were processed

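Single-cell 5' RNA and antibody-tag libraries of 3 sets were used. The authors deposited UMI counts per gene, surface tag and hashtag for each barcode, made with Cell Ranger 6.0.1 on mm10 and further handled with Seurat 4.1.3, per the submitters' processing notes; no normalization was found in the values, and sets held 96866964 to 107244246 gene UMIs. Cells were filtered, assigned to a treatment and gated as the report states, and barcodes with both hashtags were left out as doublets; doublets within a treatment were not removed. The members, gene lists and tests were chosen with earlier results of these data known. Calls by V genes, and the comparisons made with them, were added after the data were seen.

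Counts were summed per set, treatment and light chain (Python 3.11.15, numpy 2.4.6, pandas 2.3.3). Genes passing filterByExpr were tested with the quasi-likelihood test of edgeR 4.0.16 (R 4.3.3, limma 3.58.1) with TMM scaling and BH adjustment over all genes tested, at 0.05, which is the test behind every adjusted p given for a gene; fold changes are log2 ± SE and CPM are means ± SD over pools. Ighd, Edem1, Mki67 and Top2a were kept out of every gene test, and light chain genes out of all but that of IL-4 in the whole gate. Light chain comparisons and interactions had the pool as block, and IL-4 contrasts had none. Exact permutation and sign-flip tests were two-sided (scipy 1.17.1); 6 pools allow p no lower than 0.031, and 3 against 3 no lower than 0.1. Alternatives were DESeq2 1.42.0, no low-count filter, leaving out each set, other cell filters, a stricter light chain rule, thinning and replicate blocks. The edgeR step was tested on simulated counts.

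Genes were named if they passed, averaged at least 5 CPM in the higher group and had the same sign in every set or pool: the 10 largest rises and falls of a comparison and up to 3 genes of each list, from which the text gives a part, and 5 each way for interactions. A few genes outside this rule (Rag1, Rag2, Dntt, H2-Aa, Ifi30 and Cr2 between V gene calls, and the members listed by name in a count) were named after their values were seen. The 2 pools of a set share a library, and their deviations from the treatment means correlated at 0.461, 0.406 and 0.367 in Iglc-dominant cells and at 0.214, 0.172 and 0.143 in Iglv-called cells. These values were 0.325, 0.198 and 0.117 in the whole gate and 0.0042, 0.161 and -0.0303 in Igkc-dominant cells. The set thus paired the pools in all but the Igkc-dominant cells, and the main IL-4 fits and exact tests left this pairing out. Intervals and floors cover counting error only.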

Additional observations from a re-analysis of the deposited data

Results flagged for a closer look

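The IL-4 difference itself differed between kinds of naive-gate cells at 21 genes by V gene call and at 6 by constant genes (edgeR, adjusted over all genes tested), of which 7 are given here. Between Iglv-called and Igkv-called cells these were Il4i1 (0.86 on the log2 scale), Cd83 (0.47) and Slpi (1.78). Il4i1 and Cd83 had the same sign in 3 of 3 sets. Slpi was 34.2, 36.1 and 14.8 CPM in Iglv-called cells with IL-4+R848 against 18.5, 37.2 and 23.9 CPM with R848, and 23.5, 31.8 and 12.9 against 25.6, 69.0 and 125 CPM in Igkv-called cells, so the largest single value lay in Igkv-called cells of set 3.

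Between Iglc-dominant and Igkc-dominant cells they were Ccl4, a chemokine gene (-1.83), Ighv1-26 (-3.64), Ighv1-78 (5.12) and Ighv2-6 (3.45). Ighv1-26 was 1541, 1030 and 86.0 CPM in Igkc-dominant cells with IL-4+R848 against 55.8, 62.7 and 49.6 CPM with R848. Ighv1-78 was 683 and 3098 CPM in Igkc-dominant cells of sets 2 and 3 with R848. The Igkc-dominant pools held 152 to 416 cells.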

How the results depend on the processing

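Counts of genes called moved with the settings. For Iglc-dominant against Igkc-dominant cells (964) they were 395 to 684 without a set, 501 with a stricter light chain rule (438 higher and 63 lower, with a median log2 fold change of all genes of 0.79, from Igkc-dominant pools of 1 to 7 cells), 277 by V genes, 460 in IL-4+R848 pools, 501 in R848 pools and 710 without the block. For IL-4 in Iglc-dominant cells (1483) they were 643 to 1105 without a set, 657 with the stricter rule, 335 by V genes and 2124 with the set as replicate block. For IL-4 in Igkc-dominant cells (198) they were 68 to 251 without a set, 376 without the count filter, 0 with the stricter rule, 1403 by V genes and 297 with the block. For the interaction of light chain and IL-4 (6) they were 6 to 34 without a set, 0 with DESeq2, 68 without the filter, 0 without the block, 11 with 200 genes and 20% mitochondrial UMIs allowed, 11 without secreting cells and 21 by V genes. For Iglv-called against Igkv-called cells (277) they were 130 to 230 without a set, 165 with DESeq2, 48 without the block and 159 in R848 pools. For IL-4 they were, without a set and with the block, 195 to 241 and 450 in Iglv-called cells (335, and 504 without the filter), 591 to 1016 and 2003 in Igkv-called cells (1403), and 545 to 917 and 1941 in the whole gate (1382). The interaction of V gene call and IL-4 (21) gave 22 to 27 without a set, 2 with DESeq2, 55 without the filter and 0 without the block.

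The differences in Iglc-dominant share from the naive gate were 77.7 to 78.8 points for plasma cells, 26.5 to 28.2 for dividing cells and 3.95 to 5.89 for Ighd-negative cells without a set, and 2.78 for Ighd-negative cells after thinning. By V genes they were 0.807 and -2.40 for plasma and Ighd-negative cells, and 0.979 and -2.08 after thinning. By V genes the sign turned for Atp1b1 (1.26), Ccr6 (-0.85), Cd72 (-0.24), Derl3 (0.44), H2-Oa (-0.25), H2-Ob (-0.0346), Plac8 (-0.13), Prdm1 (0.69), Rrp9 (0.10), Tnfrsf13b (-0.0334), Xbp1 (0.18) and the interaction at Ighv2-6 (-1.72). The sign also turned for H2-Aa, H2-Eb1, Fcgr2b and Lmo2. Among tags between Iglc-dominant and Igkc-dominant cells it turned within the ranges without a set for CD23 (-0.00389 to 0.116), CD95 (-0.16 to 0.0746), CD11c (-0.255 to 0.162), CD273 (-0.397 to 0.0979) and CD27 (-0.0183 to 0.205), and for IgD without the top 5% of UMIs (-0.00986). For IL-4 in Iglc-dominant cells it turned for CD11c without a set (-0.00908 to 0.271), and as a share of tag UMIs for IgD (-0.157), CD95 (-0.513), CD11c (-0.531), CD27 (-0.344), CD273 (-0.201) and CD80 (-0.481); CD138 between V gene calls turned on that scale too (0.0552). The cause was not tested. The stricter rule was not run for heavy chain families and tags, since it leaves 1 to 7 Igkc-dominant cells per pool. Small Iglv-called pools limit what can be called in genes of low level.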
